A study of Mus musculus with 6 samples.

Results

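The genes of the NRF2 and KEAP1 circuit were followed by name in mRNA libraries of cultured mouse lung endothelial cells exposed to hydrogen peroxide. The set holds 10 genes: the activators Nfe2l2 and Nfe2l1, the inhibitor Keap1, the repressor Bach1, the small MAF partners Maff, Mafg and Mafk, and the stress-responsive genes Nqo1, Sqstm1 and Osgin1. All 10 were found by symbol among the 33006 genes of the count tables, and all 10 were among the 12924 genes with enough reads to be tested. The H2O2 group holds 3 libraries from C57BL/6 pulmonary primary endothelial cells given 300 uM H2O2 for 6 hours, and the control group holds 3 libraries from the same kind of cells given water. All cells were grown in an endothelial medium (EBM-2 with the EGM-2 MV supplements) to 80% confluence before the addition. The labels give no age or sex and do not say whether libraries numbered 1 to 3 came from separate cultures or animals, so the p-values rest on the spread between libraries alone, and that spread may be technical.

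NRF2, the protein of Nfe2l2, is the main transcription factor of the antioxidant response. In resting cells KEAP1 holds it for ubiquitination by the CUL3 ligase, and oxidants or electrophiles that modify cysteines of KEAP1 let NRF2 escape, enter the nucleus, pair with a small MAF protein and bind antioxidant response elements. BACH1 pairs with the same small MAF proteins and represses many of the same genes until haem removes it, while the autophagy receptor p62 (Sqstm1) can occupy KEAP1 and is itself an NRF2 target. Much of this control acts on protein stability and localisation, which mRNA libraries do not measure.

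Promoters are shown for the 3 members with the largest falls (Sqstm1, Mafk and Nfe2l2), so that their letters can be read beside their values, and for Osgin1, the member with a match to the longer NRF2 and BACH1 motif. Each window runs 5′ to 3′ on the gene's strand from 250 bases before to 50 bases after a RefSeq start site (GRCm38.p6, the assembly of mm10). Capitals mark a match to TGACNNNGC (a core of the antioxidant response element), to TGANTCAGC (the form bound by NRF2 or BACH1 with a small MAF) or to the AP-1 motif TGANTCA, which lies inside TGANTCAGC. Both strands were searched.
Sqstm1, chr11:50210771-50211070, reverse strand: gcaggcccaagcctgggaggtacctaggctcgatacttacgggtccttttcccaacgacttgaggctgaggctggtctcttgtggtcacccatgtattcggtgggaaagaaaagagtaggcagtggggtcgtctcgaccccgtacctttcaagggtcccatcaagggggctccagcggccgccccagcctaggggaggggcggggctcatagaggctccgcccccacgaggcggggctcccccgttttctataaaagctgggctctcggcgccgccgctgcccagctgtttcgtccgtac
Mafk, chr5:139791286-139791585, forward strand: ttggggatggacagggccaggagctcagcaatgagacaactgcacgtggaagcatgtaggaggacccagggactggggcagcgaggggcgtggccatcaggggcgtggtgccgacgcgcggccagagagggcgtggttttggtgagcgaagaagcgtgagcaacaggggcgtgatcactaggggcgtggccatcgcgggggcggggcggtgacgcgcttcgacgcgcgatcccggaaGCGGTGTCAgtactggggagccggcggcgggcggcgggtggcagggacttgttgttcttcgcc
Nfe2l2, chr2:75704614-75704913, reverse strand: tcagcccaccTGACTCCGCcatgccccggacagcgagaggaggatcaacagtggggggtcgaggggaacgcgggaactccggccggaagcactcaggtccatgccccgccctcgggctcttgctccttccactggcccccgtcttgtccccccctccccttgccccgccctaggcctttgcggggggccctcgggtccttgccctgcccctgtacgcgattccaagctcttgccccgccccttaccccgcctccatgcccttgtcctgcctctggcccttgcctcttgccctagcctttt
Osgin1, chr8:119436897-119437196, forward strand: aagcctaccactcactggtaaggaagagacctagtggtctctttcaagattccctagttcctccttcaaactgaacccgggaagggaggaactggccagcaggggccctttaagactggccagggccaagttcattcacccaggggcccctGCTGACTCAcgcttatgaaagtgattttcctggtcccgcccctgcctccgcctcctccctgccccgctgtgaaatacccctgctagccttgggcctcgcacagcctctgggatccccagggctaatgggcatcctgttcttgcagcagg

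The 10 members have 16 such windows, since Nfe2l1 and Maff have several start sites. TGACNNNGC was found in 4 of the 16 windows (1 each of Maff, Mafg, Mafk and Nfe2l2), against 12.4% of all 32851 promoter windows. TGANTCAGC was found in 1 window, that of Osgin1, against 1.19% of all windows, and TGANTCA in the same window, against 7.81%. Counted from the start site, the match in Mafk lay at -13 to -5 on the opposite strand, that in Nfe2l2 at -240 to -232, and that in Osgin1 at -99 to -91 on the opposite strand. The Sqstm1 window held none of the 3 motifs, which says only that these letters are not in this window. A match is a description of the sequence and was not tested for binding.

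The libraries held 26042296 to 27618679 gene counts with H2O2 and 22455388 to 25626849 in controls, and a member had 652 to 42335 counts in a library. A chi-square test told apart all pairs of libraries within a group (1.63 to 11.7 for each degree of freedom). H2O2 replicate 3 stood farthest from its group by this measure (9.15 and 11.7), and without it 5 members fell. Levels are given as CPM, a normalised count that scales each library by its total and by edgeR's TMM factor (trimmed mean of M-values). Summed over 8 endothelial markers (Pecam1, Cdh5, Kdr, Tek, Tie1, Erg, Emcn and Egfl7), levels were 4293 to 4321 CPM with H2O2 and 4064 to 4151 CPM in controls, and 3 of the 8 rose. The 4 lymphatic endothelial markers summed to 2245 to 2288 CPM with H2O2 and 2184 to 2239 CPM in controls, and 2 of the 3 tested rose. Lyve1 made up most of this sum (1830 to 1907 CPM over all libraries), with Flt4 at 344 to 377 CPM. Prox1 was low (8.17 to 12.4 CPM) and Pdpn nearly absent (0.036 to 0.292 CPM). Epithelial markers summed to under 0.193 CPM in every library, with Sftpc and Scgb1a1 at 0. Of the leukocyte markers found, Cd3e was at 0 in every library, and Cd68, a lysosomal protein gene, made up nearly all of the 162 to 169 CPM with H2O2 and 157 to 163 CPM in controls. Fibroblast and mural markers summed to 28.3 to 32.7 CPM with H2O2 and 30.5 to 32.1 CPM in controls, and 0 of the 5 tested passed in edgeR's test. The part of the higher endothelial markers in the members' values was not tested.

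Of the 10 members, 5 fell with H2O2 (Sqstm1, Mafk, Nfe2l2, Keap1 and Nfe2l1) and 0 rose, by edgeR's quasi-likelihood test at an adjusted p of 0.05 (Benjamini-Hochberg over all genes tested). Of all genes tested, 20.5% passed, 10.8% as falls (1395 genes) and 9.70% as rises (1254 genes). Without H2O2 replicate 1 the falls over all genes numbered 926, and 4 members fell. The count of members was also 4 without control replicate 2 or control replicate 3, and 6 without control replicate 1. At an unadjusted p under 0.05, 7 members were lower and 0 higher, and both DESeq2 and limma-voom called the same number, 5 lower and 0 higher. All 3 H2O2 libraries lay below all 3 controls for 6 members, against 18.2% of all genes, and above them for 0 members. Over all genes, 34.6% did not overlap in one direction or the other. The falls of the called members ranged from 1.09-fold (Nfe2l1 and Keap1) to 1.38-fold (Sqstm1). The median log2 fold change over all genes was -0.0041. In bulk libraries, fewer cells that express a gene and less RNA per cell cannot be told apart.

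**Figure D1:**
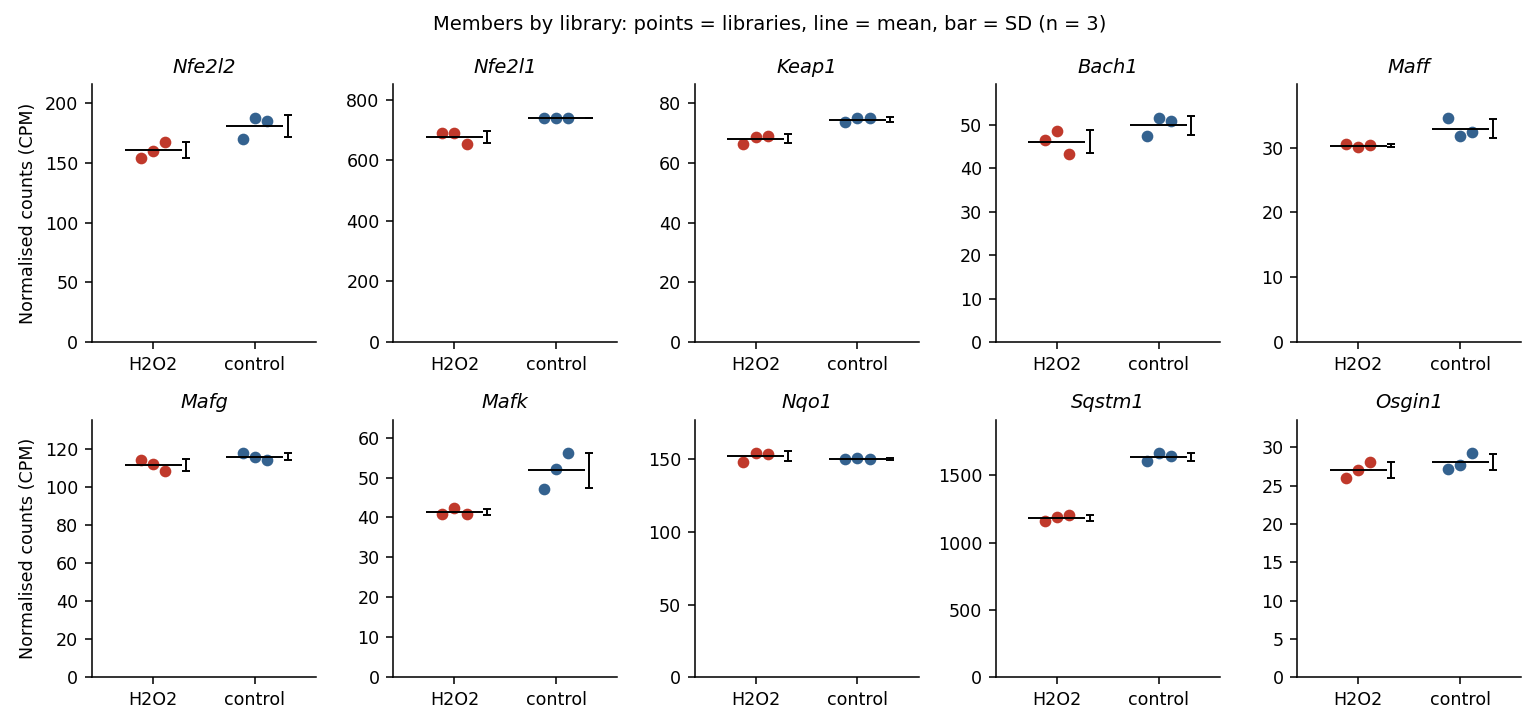
Normalised counts (CPM, y axis from 0) of the 10 members in each library, with H2O2 at the left and control at the right of each panel; points are libraries, the line is the mean and the bar the SD (n = 3). Sqstm1 shows the widest gap, at 1157 to 1203 CPM with H2O2 and 1603 to 1663 CPM in controls, while the Nqo1 libraries of the groups overlap.

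Both activator genes fell slightly. Nfe2l2 (chromosome 2, 75675513 to 75704641, reverse strand; mm10, GENCODE M21) had 154.5, 159.7 and 167.7 CPM with H2O2, against 170.0, 187.7 and 185.4 CPM in controls. All H2O2 libraries were below all controls, but the gap between the highest H2O2 library and control replicate 1 was narrow. On the log2 scale the fold change, H2O2 over control, was -0.17 (standard error, SE, 0.0373; 95% interval -0.25 to -0.10; adjusted p = 0.0013 in edgeR's test), or 1.13-fold lower. Nfe2l1 encodes NRF1, a relative anchored in the endoplasmic reticulum that drives proteasome genes when the proteasome is inhibited. Nfe2l1 (chromosome 11, 96817414 to 96829968, reverse strand) had 689.3, 689.1 and 652.8 CPM with H2O2, against 739.0, 737.9 and 739.3 CPM in controls. The controls lay within a very narrow range, and H2O2 replicate 3 was the lowest library. Its log2 fold change was -0.13 (SE 0.0276, 95% interval -0.18 to -0.07; adjusted p = 0.0015 in edgeR's test), and after a correction for GC content and exon length it was -0.08 (adjusted p = 0.032, within 2.5e-04 to 0.032 over all alternatives).

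Keap1, the adaptor that presents NRF2 to the CUL3 ligase, was slightly lower too. Keap1 (chromosome 9, 21229730 to 21239361, reverse strand) had 66.31, 68.76 and 69.05 CPM with H2O2, against 73.61, 75.00 and 74.91 CPM in controls. The groups did not overlap. Its log2 fold change was -0.13 (SE 0.0378, 95% interval -0.21 to -0.05; adjusted p = 0.014 in edgeR's test). The call ended without H2O2 replicate 1 (adjusted p = 0.088), without control replicate 2 (0.059), without control replicate 3 (0.054) and after the correction for GC content and exon length (0.073). Over all 17 alternatives the adjusted p ran from 0.013 to 0.088, and 12 of them kept the call. Of the exon bases of Keap1, 10.9% lie opposite exons of Gm16754, which stood at 0.418 CPM with H2O2 and 0.310 CPM in controls.

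Bach1, the repressor that competes with NRF2 for small MAF partners, did not pass. Bach1 (chromosome 16, 87698945 to 87733346, forward strand) had 46.56, 48.42 and 43.28 CPM with H2O2, against 47.29, 51.50 and 50.72 CPM in controls. The groups overlapped, because control replicate 1 lay below H2O2 replicate 2. The log2 fold change was -0.11 (SE 0.0480, 95% interval -0.21 to -0.01; unadjusted p = 0.027, adjusted p = 0.10 in edgeR's test), and without control replicate 1 it was -0.15 and passed (adjusted p = 0.044, within 0.044 to 0.38 over all alternatives).

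The ratios of Nfe2l2 to its antagonists overlapped between the groups. Per kilobase of exon, Nfe2l2 stood at 5.69 ± 0.533 times the level of Bach1 with H2O2 and 5.91 ± 0.0519 times in controls (SD, n = 3 each). The log2 ratio differed by -0.06 (exact two-sided permutation test over libraries, p = 0.40). Against Keap1, Nfe2l2 stood at 2.92 ± 0.0736 times with H2O2 and 3.00 ± 0.129 times in controls, a difference of -0.04 in the log2 ratio (exact permutation p = 0.40). With 3 libraries against 3 the smallest p that this test can give is 0.10, so neither ratio could have passed 0.05. Of the 3 H2O2 libraries, replicate 3 had the highest Nfe2l2 to Bach1 ratio (log2 2.66), above all controls (2.55 to 2.57), and the others (2.43 and 2.42) were below them.

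Of the 3 small MAF genes, which encode short bZIP proteins that bind DNA but lack an activation domain of their own, 1 fell (Mafk). Mafk (chromosome 5, 139791513 to 139802653, forward strand) had 40.82, 42.30 and 40.98 CPM with H2O2, against 47.25, 52.01 and 56.05 CPM in controls. The H2O2 libraries were close together and the controls spread over a wider range, all above them. The log2 fold change was -0.32 (SE 0.0511, 95% interval -0.43 to -0.22), or 1.25-fold lower, with an adjusted p of 4.0e-05 in edgeR's test. Maff (chromosome 15, 79346621 to 79359076, forward strand) had 30.50, 30.08 and 30.36 CPM with H2O2, against 34.57, 31.78 and 32.44 CPM in controls. The groups did not overlap, yet the log2 fold change of -0.12 (SE 0.0515) did not pass (unadjusted p = 0.028, adjusted p = 0.11 in edgeR's test). After the correction for GC content and exon length Maff stood at -0.14 and passed (adjusted p = 0.040, within 0.040 to 0.38 over all alternatives). Mafg, the most abundant of the 3 per kilobase (chromosome 11, 120625117 to 120633600, reverse strand), had 114.2, 111.7 and 108.1 CPM with H2O2, against 117.5, 115.6 and 113.8 CPM in controls. The groups overlapped, and the log2 fold change was -0.06 (SE 0.0346, 95% interval -0.13 to 0.02; adjusted p = 0.29).

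Shares within the small MAF pool were set side by side, and a difference in fall between the 3 genes was tested in no other way. Summed per kilobase of exon, the 3 genes came to 42.1 ± 0.583 CPM per kb with H2O2 and 46.6 ± 0.507 CPM per kb in controls (SD, n = 3 each; exact two-sided permutation p = 0.10). Mafk made up 25.2% ± 0.534 of that sum with H2O2 and 28.5% ± 2.20 in controls. Mafg made up 47.1% ± 0.688 with H2O2 and 44.2% ± 1.12 in controls. Both shares separated the groups without overlap, with an exact permutation p of 0.10, the smallest this design allows. The Maff share was 27.8% ± 0.433 with H2O2 and 27.3% ± 1.28 in controls (exact permutation p = 0.60). Of the exon bases of Mafk, 4.3% lie opposite exons of Tmem184a (0.0121 CPM with H2O2 and 0.0397 CPM in controls). Of those of Mafg, 2.2% are shared with Sirt7 on the same strand (36.6 CPM with H2O2 and 35.8 CPM in controls).

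Sqstm1 showed the largest difference among the members. It encodes p62, which carries ubiquitinated cargo to autophagosomes and binds KEAP1. Sqstm1 (chromosome 11, 50199366 to 50210827, reverse strand) had 1157, 1189 and 1203 CPM with H2O2, against 1603, 1663 and 1640 CPM in controls. No library came near the other group. The log2 difference was -0.47 (SE 0.0274, 95% interval -0.52 to -0.41; adjusted p = 1.8e-12 in edgeR's test), and over the 17 alternatives it ran from -0.48 to -0.44. Of the exon bases of Sqstm1, 17.3% lie opposite exons of Mrnip. That gene, which the tables list under its older symbol 3010026O09Rik, stood at 5.36 ± 0.582 CPM with H2O2 and 4.92 ± 0.321 CPM in controls (SD, n = 3 each), far below Sqstm1, and did not pass.

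Nqo1 and Osgin1 did not pass. Nqo1 encodes a quinone reductase that is among the most used reporters of NRF2 activity. Nqo1 (chromosome 8, 107388225 to 107403206, reverse strand) had 148.1, 153.9 and 153.7 CPM with H2O2, against 149.8, 150.8 and 149.9 CPM in controls. The groups overlapped, with H2O2 replicate 1 below all controls and the other two above them. The log2 fold change was 0.02 (SE 0.0316; adjusted p = 0.78 in edgeR's test), and its 95% interval of -0.05 to 0.08 spans a change of -3.30% to 5.80%. Osgin1, an oxidative stress-induced growth inhibitor gene (chromosome 8, 119434124 to 119446256, forward strand), had 26.03, 27.07 and 28.07 CPM with H2O2, against 27.19, 27.70 and 29.21 CPM in controls. The groups overlapped, with a log2 fold change of -0.05 (SE 0.0552, 95% interval -0.16 to 0.06; adjusted p = 0.59). These intervals leave out a change as large as that of Sqstm1, and a p that misses the threshold does not show that the levels were equal.

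**Figure D2:**
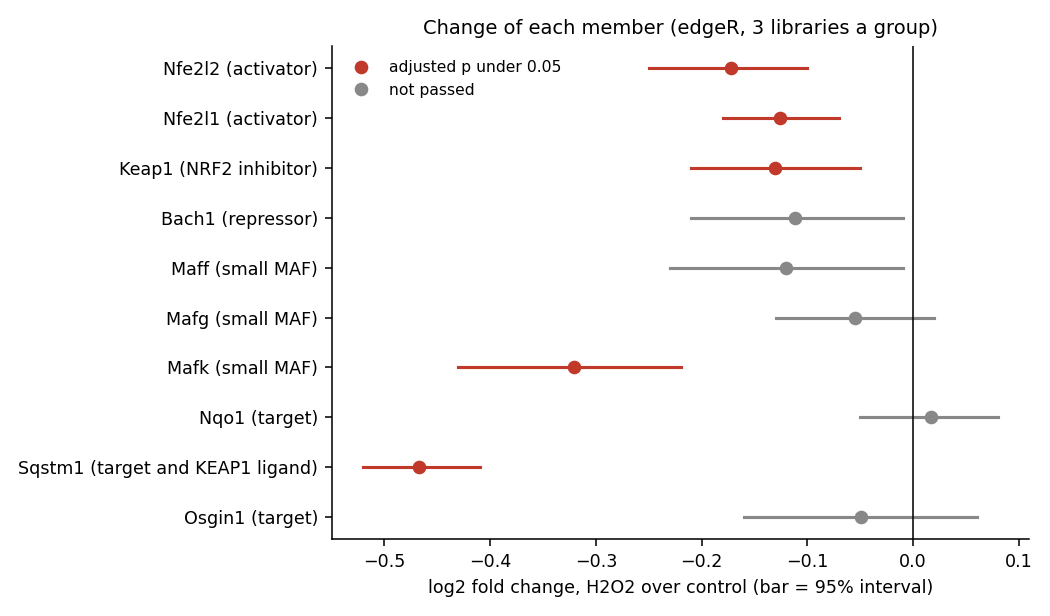
Log2 fold change of each member, H2O2 over control (x axis), with its 95% interval from edgeR's quasi-likelihood fit, members down the page by role. Red members passed at an adjusted p of 0.05; Sqstm1 (-0.47) and Mafk (-0.32) lie farthest to the left, and the intervals of Mafg, Nqo1 and Osgin1 include 0.

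Levels of the members were compared per kilobase of exon, since longer transcripts give more reads. Sqstm1 was highest, at 344.7, 354.4 and 358.4 CPM per kb with H2O2 and 477.7, 495.6 and 488.8 CPM per kb in controls. Nfe2l1 followed at 124 ± 3.86 CPM per kb with H2O2 and 136 ± 0.144 in controls (SD, n = 3 each), about 2.95 ± 0.207 times the level of Nfe2l2 with H2O2 and 2.85 ± 0.157 times in controls. Nqo1 came next (97.8 ± 2.12 CPM per kb with H2O2, 96.7 ± 0.365 in controls), then Nfe2l2 (42.3 ± 1.76 with H2O2, 47.7 ± 2.53 in controls). Below them were Mafg (19.8 ± 0.551 with H2O2, 20.6 ± 0.331 in controls) and Keap1 (14.5 ± 0.320 with H2O2, 15.9 ± 0.166 in controls). Bach1 was lowest, at 7.46 ± 0.421 CPM per kb with H2O2 and 8.07 ± 0.363 in controls. With H2O2, Maff (11.7 ± 0.0819 CPM per kb) lay above Mafk (10.6 ± 0.208), whose libraries overlapped those of Osgin1 (10.1 ± 0.380). In controls Mafk (13.3 ± 1.13) and Maff (12.7 ± 0.562) overlapped, above Osgin1 (10.5 ± 0.393). All other neighbours in the order kept apart within each group.

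**Figure D3:**
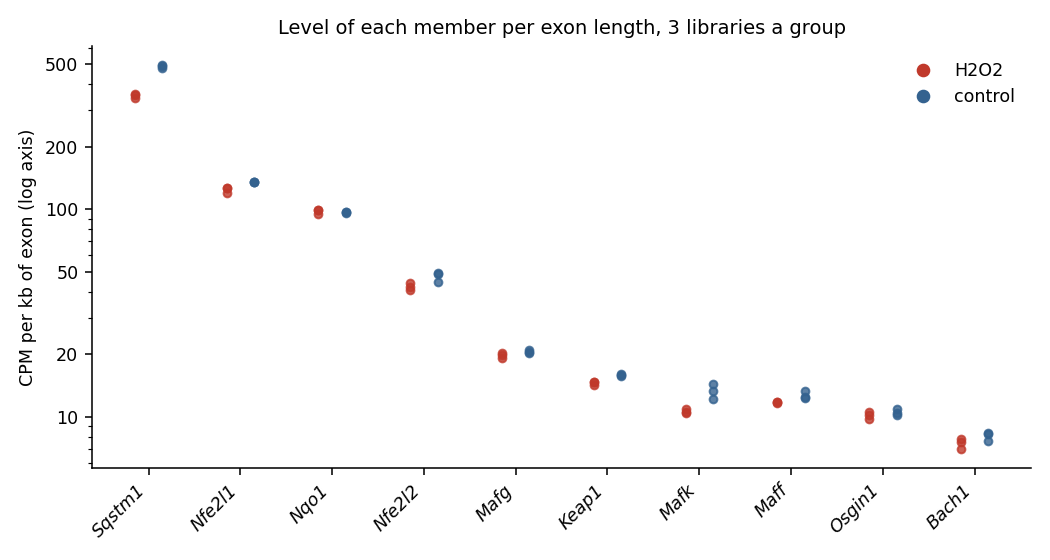
Level of each member per kilobase of exon (CPM per kb, log axis), ordered by the control mean; points are single libraries, H2O2 left of control for each gene. Sqstm1 stands at 345 to 496 CPM per kb over the 6 libraries and Bach1 at 7.01 to 8.34.

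Among further NRF2 target genes, every one that passed was lower with H2O2. Of 34 listed genes outside the members, 33 were tested (Gpx2 had too few reads), 15 fell and 0 rose, where 10.8% of all genes fell. The list's median log2 fold change was -0.10, against -0.0041 over all genes. At an unadjusted p under 0.05, 2 were higher (the pentose phosphate enzyme gene Taldo1 and the biliverdin reductase gene Blvrb), DESeq2 and limma-voom called 0 rises, and DESeq2 called 13 falls. The haem oxygenase gene Hmox1 had 595 ± 25.6 CPM with H2O2 and 762 ± 17.1 CPM in controls (SD, n = 3 each), a log2 fold change of -0.36. Srxn1, which encodes the reductase of overoxidised peroxiredoxins, had 208 ± 5.68 CPM with H2O2 and 265 ± 3.65 CPM in controls (log2 fold change -0.35). The pentose phosphate dehydrogenase gene Pgd had 357 ± 7.95 CPM with H2O2 and 423 ± 5.72 CPM in controls (-0.25). The most abundant of the list, the ferritin heavy chain gene Fth1, had 3541 ± 125 CPM with H2O2 and 4161 ± 53.4 CPM in controls (-0.23). The adjusted p of these 4 in edgeR's test ran from 1.9e-09 to 8.8e-07. The other 11 falls, named to complete the count, were those of Gclm and Slc7a11 (glutathione supply), Txnrd1 (thioredoxin reductase), G6pdx and Tkt (pentose phosphate pathway), Gsta3, Gsta4 and Gstp1 (glutathione transferases), Akr1b8 (an aldo-keto reductase) and the exporters Abcc1 and Abcc4. The Gsta genes are close paralogs of low abundance, between which reads may have been split. Gclc (-0.06), Txn1 (0.01), Gsr (0.05) and Ftl1 (0.05), named after their values were seen as partners of genes that fell, did not pass.

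**Figure D4:**
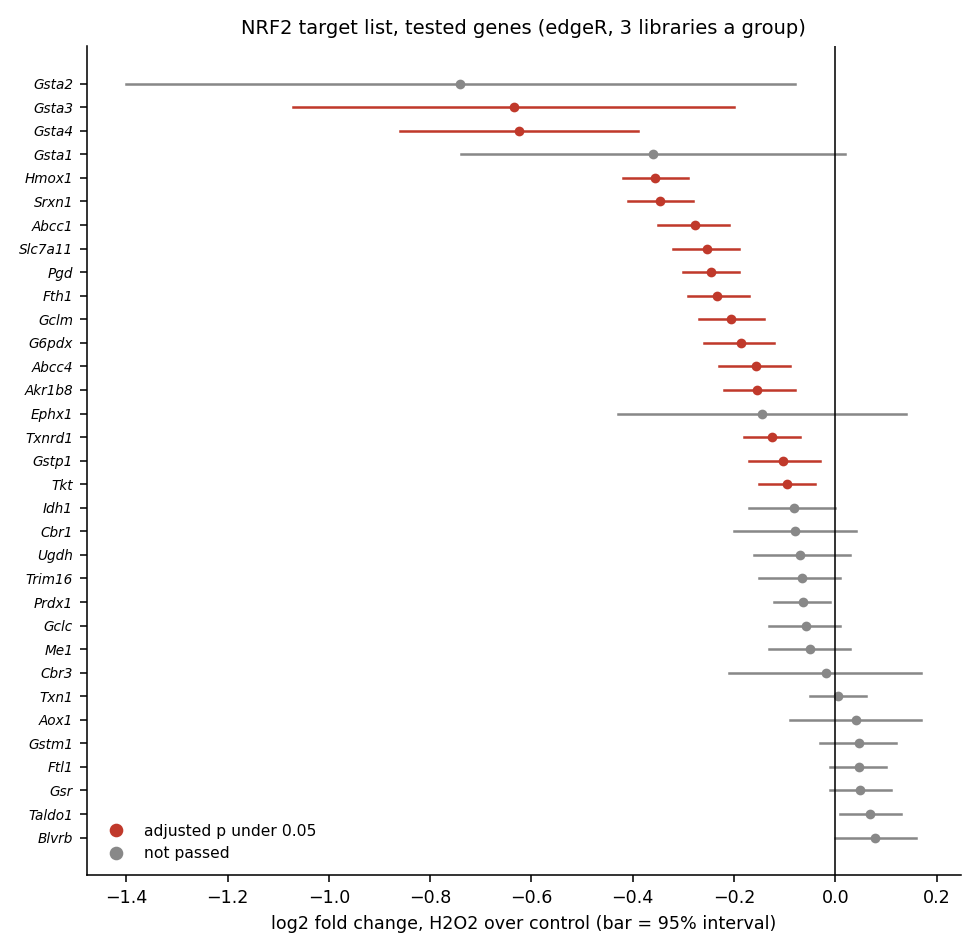
Log2 fold change, H2O2 over control (x axis), of the 33 tested genes of the NRF2 target list with 95% intervals, ordered by value. The 15 red genes passed at an adjusted p of 0.05 and all lie below 0; the 4 genes at the top with wide intervals are glutathione transferase genes of low abundance.

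A ligase and turnover list held 18 genes: those of ligases that act on NRF2 or BACH1, their regulators, and proteins that bind KEAP1. Of these, 1 rose (5.56%) and 2 fell (11.1%), near the 9.70% and 10.8% of all genes. The log2 fold change was below 0 for 9 of them. Skp1a, an adaptor of the SCF ligases, rose by 0.12 (SE 0.0322; adjusted p = 0.0068 in edgeR's test), and Dpp3 (-0.14), whose protein can occupy KEAP1, and Cand1 (-0.10), an exchange factor of cullin ligases, fell. The most abundant over the 6 libraries together, the ligase scaffold Cul3, had 165 ± 7.65 CPM with H2O2 and 163 ± 4.30 CPM in controls (SD, n = 3 each; log2 fold change 0.01), and in controls alone Cand1 was above it (168 ± 4.70 CPM). The call of Dpp3 ended after the correction for GC content and exon length (adjusted p = 0.075, within 0.0040 to 0.075 over all alternatives). Counts this small moved with the libraries: 0 rose and 0 fell without H2O2 replicate 1, 0 fell without control replicate 2 or control replicate 3, and 2 rose without H2O2 replicate 2.

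Of 10 relatives of the members, 7 were tested and 1 fell (14.3%), where 10.8% of all genes fell. Enc1, a relative of Keap1, had 108 ± 4.94 CPM with H2O2 and 119 ± 3.30 CPM in controls (SD, n = 3 each), a log2 fold change of -0.14 (adjusted p = 0.0098 in edgeR's test). The call of Enc1 ended without H2O2 replicate 1 or control replicate 3, so that 0 fell, and after the correction for GC content and exon length 0 fell; 2 fell without H2O2 replicate 3. Nfe2l3, Maf and Nrl had too few reads to be tested. Of 9 cofactors of NRF2, 1 fell (11.1%) and 0 rose, beside 10.8% and 9.7% of all genes. At an unadjusted p under 0.05, 0 cofactors were higher, and DESeq2 and limma-voom called 0 rises. The one that fell was the remodeller gene Smarca4, with 401 ± 3.31 CPM with H2O2 and 447 ± 2.25 CPM in controls (-0.16, adjusted p = 1.3e-04). Without H2O2 replicate 3, 1 cofactor rose, and without H2O2 replicate 2 or control replicate 3, 2 fell.

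NRF1 is pulled from the membrane, deglycosylated and cut before it reaches the nucleus. Of 9 genes of this processing and of NRF1 turnover, 3 fell (33.3%) and 0 rose. Over all genes tested, 10.8% fell and 9.7% rose. At an unadjusted p under 0.05, 1 of the 9 was higher (Ogt), and DESeq2 and limma-voom called 0 rises among them. Vcp, the segregase, had 492 ± 3.83 CPM with H2O2 and 598 ± 8.38 CPM in controls (SD, n = 3 each; log2 fold change -0.28, adjusted p = 1.3e-08 in edgeR's test), its cofactor gene Nploc4 stood at -0.13 and the ligase partner gene Sel1l at -0.13. Without control replicate 1, 1 of the 9 rose. Proteasome subunit genes, the known targets of NRF1, went both ways, with 5 of 31 higher (16.1%), 7 lower (22.6%) and a median of -0.03. The rises with the smallest p were those of Psma7 (0.34), Psmb6 (0.17) and Psmb5 (0.16), and the falls with the smallest p were those of Psmd2 (-0.23), Psmc2 (-0.21) and Psmd1 (-0.16). The falls included the core subunit genes Psma1 (-0.13) and Psma4 (-0.10), named after their values were seen, and core and cap subunits were not tested against each other. The rises numbered 2 without H2O2 replicate 1, 2 without control replicate 2 and 3 without H2O2 replicate 3. After the correction for GC content and exon length 2 rose, with Psmb6 at 0.09 and Psmb5 at 0.04, both not called. The call of Psmb5 also ended without H2O2 replicate 1, H2O2 replicate 2 or control replicate 2, and DESeq2 called 3 rises.

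Beside Sqstm1, 12 other autophagy genes (receptors, the ATG8 family and the kinase gene Ulk1) showed 4 falls (33.3%) and 1 rise (8.33%). Over all genes tested, 10.8% fell and 9.7% rose. The receptor gene Nbr1 had 153 ± 1.79 CPM with H2O2 and 170 ± 1.34 CPM in controls (SD, n = 3 each; log2 fold change -0.15, adjusted p = 5.8e-04 in edgeR's test). Gabarapl1 (-0.20) and Tollip (-0.13) fell as well, Gabarap rose by 0.11, and Map1lc3b, the most abundant, stood at 0.06 and did not pass (adjusted p = 0.10). It passed with upper-quartile factors (0.048, within 0.0030 to 0.30 over all alternatives) and after the correction for GC content and exon length. The calls of Gabarap and Tollip ended after that correction, that of Gabarap also without H2O2 replicate 1 or control replicate 2, and that of Tollip without H2O2 replicate 3, control replicate 2 or control replicate 3. Without control replicate 2 or control replicate 3, 2 fell, without H2O2 replicate 1 or control replicate 2, 0 rose, and without H2O2 replicate 3, 2 rose. The median log2 fold change was 0.03, so that Sqstm1, at -0.47, lay below the lowest of the 12 (-0.20).

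**Figure D5:**
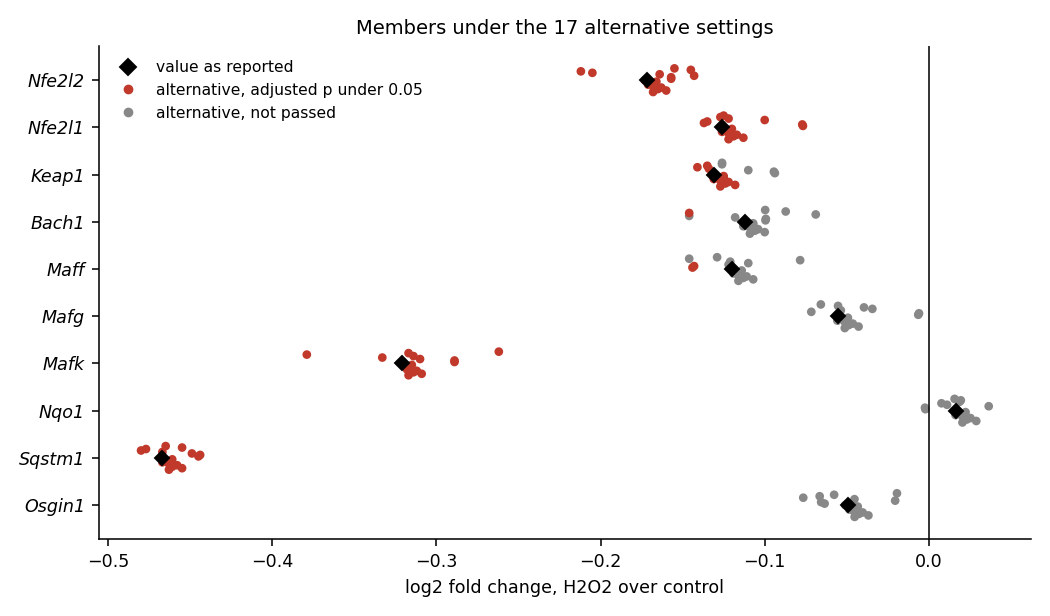
Log2 fold change of each member, H2O2 over control (x axis), as reported (black diamond) and under the 17 alternative settings (points, red where the adjusted p was under 0.05). Sqstm1, Mafk, Nfe2l2 and Nfe2l1 passed under all 17, Keap1 under 12, Maff under 2, Bach1 under 1 and Mafg, Nqo1 and Osgin1 under none.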

How the data were processed

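RNA was measured in 3 H2O2 and 3 control libraries, each made from 100 ng of total RNA. Each library has its own deposited table of unnormalised read counts by gene symbol. The submitters' processing notes name mm10 and, with no roles, DESeq2, HTSeq, STAR 2.5.3, cutadapt and bcl2fastq 2.17.1.14. The annotation and strand setting are not given in the sources used here. Whether reads of a gene and of an opposite-strand partner were told apart, or left out as ambiguous, is therefore not known. The 5 HTSeq summary classes were left out (no feature 4.76% to 5.46% and ambiguous 3.17% to 3.30% of counted reads). The class of alignments that were not unique separated the groups, at 11.03% to 11.13% with H2O2 and 11.43% to 11.68% in controls. The part of this difference in the results was not tested.

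Genes were filtered with filterByExpr and tested with edgeR 4.0.16 (quasi-likelihood test, TMM factors, treatment as the only term; R 4.3.3), with Benjamini-Hochberg adjustment over 12924 genes. Each SE is the log2 fold change divided by the root of its F statistic. CPM are counts scaled with TMM factors; exon lengths came from GENCODE M21. Ratios were tested by exact permutation over libraries (SciPy 1.17.1). The edgeR test was checked on simulated data. Alternatives covered scaling, DESeq2 1.42.0, limma-voom (limma 3.58.1), filters, a replicate block, a loess correction (offset) for GC content and exon length, and leaving out each library. In this correction (span 0.3), GC content and exon length are those of a gene's longest transcript, known for 99.0% of tested genes. Levels per kilobase instead use all exon bases of a gene.

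The members, lists, tests and alternatives were chosen with earlier results of these data known. Named genes are all members and, of each list, up to 3 passing genes with the smallest p in each direction and the most abundant gene. A result of 1 listed gene is not reported here. Library sizes set the precision of low genes. Promoters were credited to RefSeq, and windows were found for all 10 members.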

Additional observations from a re-analysis of the deposited data

How the results depend on the processing

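Of the 10 members, 5 were lower under every other scaling, filter, test and offset, and 4 to 6 when 1 library was left out; 0 were higher under any of the 17 alternatives. After the correction for GC content and exon length Maff passed in place of Keap1. Same-numbered libraries showed little likeness, with correlations of 0.0022, 0.030 and -0.026 in their deviations from the group means. Across groups, 2 of 6 libraries correlated best with their own number. With 3 libraries a group, these values cannot show whether same-numbered libraries shared a culture or batch. With the replicate block, 5 members were lower and 0 higher, and 2 relatives of the members were lower. Leaving out 1 library gave 926 to 1313 falls and 891 to 1178 rises over all genes. It gave 13 to 15 falls and 0 rises among NRF2 targets, and 0 to 2 rises and 0 to 2 falls in the ligase and turnover list. Relatives had 0 to 1 rises and 0 to 2 falls, and cofactors 0 to 1 rises and 1 to 2 falls. Genes of NRF1 processing and turnover had 0 to 1 rises and 3 falls. Proteasome genes had 2 to 6 rises and autophagy genes 0 to 2 rises and 2 to 4 falls.

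With upper-quartile factors 1 NRF2 target, 2 genes of the ligase and turnover list and 2 autophagy genes rose. In the ligase and turnover list 2 rose also with TMM factors that left out ribosomal and mitochondrial genes, and with the stricter filter. The same number rose with the correction for GC content and exon length, with or without the block. With the correction, with or without the block, 0 relatives fell, 2 proteasome genes rose and 2 autophagy genes rose; DESeq2 called 3 proteasome rises, and 2 autophagy genes rose with no filter. The cause of these shifts was not tested. With the correction the Nqo1 log2 fold change turned to -0.00208 (-0.00235 with the block) and the Cul3 log2 fold change to -0.00079 (-0.00122 with the block); leaving out 1 library gave -0.028 to 0.0425 for Cul3. Leaving out 1 library kept the sign of each ratio and share: -0.135 to -0.0186 for log2 Nfe2l2 to Bach1, -0.077 to -0.0189 for Nfe2l2 to Keap1, and 0.112 to 1.22, 2.21 to 3.28 and -4.50 to -2.32 percentage points for the Maff, Mafg and Mafk shares. Members had 652 or more counts in every library, and with 3 libraries a group small differences can be missed.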
